A study of Mus musculus with 4 samples.

Results

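The genes described here build cholesterol, control that synthesis, take the sterol up, move it within the cell, esterify it and export it. The list held 33 mouse genes. A gene was measured through every probe set whose only gene symbol in the array's annotation was that gene, which gave 67 probe sets for 30 of the 33 genes, out of 34945 such probe sets for 18193 genes on the array. For Acat2, Soat1 and Soat2 no probe set bore the symbol alone, and they were not analysed here. All 30 genes passed the filter on dim signals, as did 59 of the 67 probe sets.

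Messenger RNA was measured on 4 Affymetrix arrays, with 2 arrays for livers of mice given human bone marrow mesenchymal stem cells that expressed OGFRL1 (opioid growth factor receptor like 1) and 2 for livers of mice given the same kind of cells expressing EGFP, a fluorescent protein. All animals were BALB/c nu/nu nude mice, which lack mature T cells and so tolerate human cells. In both groups carbon tetrachloride, a liver toxin, was injected 23 times at 0.25 ml per kg body weight, 1000000 stem cells were injected into the spleen, part of the liver was removed on day 21, and the regrowing liver was taken 8 days after that surgery. The labels also mention albumin in phosphate-buffered saline, in a sentence whose beginning is missing. They give no age or sex, do not say how the transgenes were driven, and leave unsaid whether each array had its own mouse, and the p-values below therefore measure only array-to-array spread, which may be technical. No group without human cells and no liver before surgery was analysed here.

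Cholesterol is made from acetyl-CoA in a long chain of enzymes in the cytosol and the endoplasmic reticulum. The early steps lead through mevalonate to farnesyl diphosphate, from which isoprenoids branch off, and the later steps join farnesyl units into squalene, close the rings and trim lanosterol to cholesterol. The transcription factor SREBP2, encoded by Srebf2, switches on nearly all of these enzymes when membrane sterol is low: Scap escorts it to the Golgi for cleavage, and the Insig proteins hold both back when sterol is plentiful. The liver is the main site at which lipoprotein cholesterol is cleared and cholesterol is secreted into bile.

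Signals were MAS5 values, a linear brightness scaled so that each array's mean after trimming 2% of the probe sets at each end was 100.001. Between the arrays the median probe set signal ran over 11.6 to 12.5. Log2 signals of the 2 OGFRL1 arrays correlated at 0.984 and those of the 2 EGFP arrays at 0.972, against 0.965 to 0.973 between arrays of different groups. Changes are given as log2 fold changes, OGFRL1 minus EGFP, of signal plus a pseudocount of 3.51, each with the standard error (SE) of a limma fit over 11942 genes. A gene was called changed at an adjusted p under 0.05 (Benjamini-Hochberg over all genes tested). By that rule 61 genes were called in either direction, 0.511% of those tested, of which 18 were lower in OGFRL1 livers, 0.151%. The median log2 fold change over all genes was 0.04, but bright genes and the spike-in controls sat lower. The Cre probe sets, which detect a control added at hybridisation, averaged -0.43 (4 probe sets), and those of BioB, BioC and BioD averaged -0.32 (14 probe sets). Among all genes tested with a mean signal of 1000 to 2500 the median was -0.08, and among those of 2500 to 5000 it was -0.24. Above 5000 it was -0.43 (134 genes), and 85.8% of those genes had both OGFRL1 arrays below both EGFP arrays.

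The enzymes of cholesterol synthesis had lower signals in OGFRL1 livers than in EGFP livers at almost every step. Of 18 synthesis genes tested, 17 were below 0 on the log2 scale, and for all 17 both OGFRL1 arrays read lower than both EGFP arrays. Such a separation in the lower direction was seen in 20.5% of all genes tested. The 17 genes stood at 31.7% to 76.7% of their EGFP mean, with a median of 51.9%, and 5 stood below 50%. Over the 18 genes the median log2 fold change was -0.91, against 0.04 over all genes tested. Among the 9251 genes within the signal range of the synthesis genes (31.6 to 3483), the median was 0.05 and 20.0% separated in the lower direction. Most genes in that range are dimmer than the synthesis genes, and the share grew with brightness: 30.4% of all genes with a mean signal of 500 to 1000 separated in the lower direction, 36.6% of those of 1000 to 2500 and 57.2% of those of 2500 to 5000. In these 3 ranges lay 5, 5 and 2 of the synthesis genes. All 12 separated in the lower direction, with medians of -0.97, -1.10 and -0.68, against -0.02, -0.08 and -0.24 over all genes of the same ranges.

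Only Fdps and Sc5d among the 30 genes passed the adjusted test, and both fell. At an unadjusted p under 0.05, 17 of the 18 synthesis genes were lower, where 6.28% of all genes were lower and 9.01% were higher. The counts of calls moved when an array was left out, in fits where the lone array of a group is assumed to vary like the pair of the other group. Without EGFP array 1 limma called 14 of the 30 genes and 5.18% of all genes tested, and without EGFP array 2 it called 13 and 7.17%. Without OGFRL1 array 1 it called 0 of the 30 and 0% of all genes, and without OGFRL1 array 2 it called 0 and 0.0167%, with 14 of the 30 at an unadjusted p under 0.05 in each case. The share of all genes at that unadjusted level is not given for these fits, so the 14 cannot be set against a background. Beside the lower synthesis signals stands the shift of the Cre controls: 15 of the 18 synthesis genes lay below -0.43. The 8 hepatocyte markers measured were lower too, with a median log2 fold change of -0.56, and are described with the other cell type markers.

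**Figure D1:**
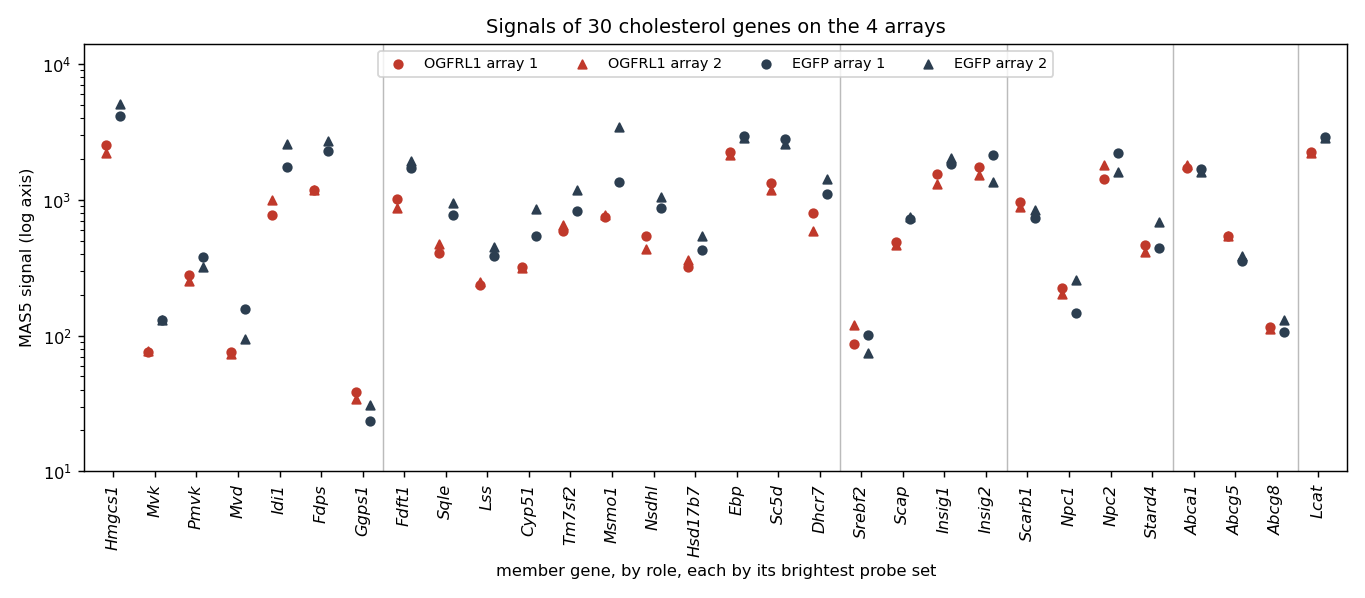
MAS5 signal (log axis) of the 30 cholesterol genes on each of the 4 arrays, 1 column per gene, with OGFRL1 arrays drawn left of EGFP arrays and each gene read by its brightest probe set. For 17 of the 18 synthesis genes on the left both OGFRL1 points lie under both EGFP points, while Ggps1 and most genes of transport and export do not show this.

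The mevalonate segment runs up to the prenyl diphosphates. Hmgcs1, the cytosolic HMG-CoA synthase at the head of the pathway, gave signals of 2547 and 2188 on the OGFRL1 arrays and of 4165 and 5033 on the EGFP arrays. It was the brightest synthesis gene, and its groups were far apart, with a log2 fold change of -0.95 (SE 0.16, adjusted p = 0.0656 in limma). Mevalonate kinase, Mvk, which phosphorylates mevalonate, read 75.9 and 76.6 in OGFRL1 livers, against 129 and 131 in EGFP livers. Its arrays were nearly equal within each group, and its log2 fold change of -0.75 had an adjusted p of 0.106. Pmvk, which adds the next phosphate, read 281 and 253 in OGFRL1 livers, against 376 and 319.7 in EGFP livers, a small difference of -0.38 (SE 0.15). Mvd, the decarboxylase that makes isopentenyl diphosphate, read 76.1 and 72.7 in OGFRL1 livers, against 156 and 94.9 in EGFP livers. The EGFP arrays differed more from each other here than the lower of them differed from the OGFRL1 arrays, and the adjusted p was 0.271 (limma).

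Idi1, the isomerase that makes dimethylallyl diphosphate, had signals of 775 and 1002 in OGFRL1 livers and 1738 and 2571 in EGFP livers. With a log2 fold change of -1.26 (SE 0.22, adjusted p = 0.0707 in limma) it stood at 41.2% of its EGFP mean. Fdps, which joins isoprene units to farnesyl diphosphate, fell. Its signals were 1169.6 and 1182 on the OGFRL1 arrays, against 2299 and 2727 on the EGFP arrays. The means were 1176 ± 8.90 in OGFRL1 livers and 2513 ± 302 in EGFP livers (SD, n = 2 arrays each), and limma gave a log2 fold change of -1.09 (SE 0.14, adjusted p = 0.0456). Ggps1 makes geranylgeranyl diphosphate for protein prenylation, on a branch that does not lead to sterol. It was the exception of the synthesis list: its dim signals were 38.1 and 33.8 in OGFRL1 livers, against 23.5 and 30.9 in EGFP livers. Both OGFRL1 arrays read higher, with a log2 fold change of 0.37 whose 95% interval ran over -0.24 to 0.99 (adjusted p = 0.558, limma).

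The promoters of 4 lower genes are shown because SREBP2 is known to act on synthesis genes together with NF-Y, a factor that binds the CCAAT box. They are Hmgcs1 (chr13:119690101-119690400, plus strand), the first enzyme measured, Idi1 (chr13:8885356-8885655, plus strand), Msmo1 (chr8:64733529-64733828, minus strand), which had the largest fold change, and Sc5d (chr9:42264251-42264550, minus strand), a called gene. Each window is RefSeq sequence of GRCm38.p6 from 250 bases before to 50 after an annotated start, 5′ to 3′ on the gene's strand. Capitals mark the core of the sterol regulatory element (CACNCCAC) and the NF-Y box (CCAAT), each searched on both strands, with ATTGG as the NF-Y box on the other strand.
Hmgcs1: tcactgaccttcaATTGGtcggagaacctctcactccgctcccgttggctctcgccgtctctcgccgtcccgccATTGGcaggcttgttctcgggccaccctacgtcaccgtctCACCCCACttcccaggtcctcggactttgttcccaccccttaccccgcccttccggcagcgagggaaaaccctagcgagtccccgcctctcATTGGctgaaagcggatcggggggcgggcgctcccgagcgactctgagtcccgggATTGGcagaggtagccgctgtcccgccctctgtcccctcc
Idi1: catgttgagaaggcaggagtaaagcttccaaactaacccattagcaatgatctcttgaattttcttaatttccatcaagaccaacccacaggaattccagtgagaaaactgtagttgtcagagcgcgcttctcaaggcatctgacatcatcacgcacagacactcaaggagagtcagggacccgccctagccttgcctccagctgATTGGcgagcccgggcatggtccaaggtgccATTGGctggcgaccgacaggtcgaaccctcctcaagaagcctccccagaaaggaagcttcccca
Msmo1: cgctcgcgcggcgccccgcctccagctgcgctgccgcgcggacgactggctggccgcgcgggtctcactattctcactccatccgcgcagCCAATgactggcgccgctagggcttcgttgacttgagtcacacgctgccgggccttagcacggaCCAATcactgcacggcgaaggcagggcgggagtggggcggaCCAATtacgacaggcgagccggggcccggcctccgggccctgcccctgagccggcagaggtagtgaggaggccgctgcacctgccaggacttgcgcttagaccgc
Sc5d: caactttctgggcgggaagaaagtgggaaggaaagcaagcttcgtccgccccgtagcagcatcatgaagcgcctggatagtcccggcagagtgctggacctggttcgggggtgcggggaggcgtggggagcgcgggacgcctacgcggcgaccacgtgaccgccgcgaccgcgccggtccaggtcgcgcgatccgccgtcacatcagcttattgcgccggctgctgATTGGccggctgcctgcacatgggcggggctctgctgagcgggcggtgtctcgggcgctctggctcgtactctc
The Hmgcs1 window held 1 sterol element core and 4 NF-Y boxes. The Idi1 window held 2 NF-Y boxes, that of Msmo1 held 3 and that of Sc5d held 1.

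Windows were given for 16 of the 19 listed synthesis genes, Fdps, Fdft1 and Sqle being without one. The NF-Y box lay in a window of 15 of these 16 genes (93.8%), against 42.5% of the 9671 tested genes with a window. It was also there in 8 of 10 members outside synthesis (80%) and in 7 of 10 genes of fatty acid synthesis (70%). Ggps1, which was not lower, was among the 15. The sterol element core was in 2 of the 16, Hmgcs1 and Acat2 (12.5%, against 7.81% of tested genes), and among the other members in Insig1. The Sp1 box GGGCGG was found for 14 of the 16 (87.5%, against 66.9% of tested genes) and the E-box CACGTG for 3 (18.8%, against 11.7%). Matches were counted on both strands and allowed to overlap. These are matches of letters in short windows and describe no binding.

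In the squalene and sterol segment all 11 tested genes were lower in OGFRL1 livers, with a median log2 fold change of -0.95, against -0.75 over the 7 tested genes of the mevalonate segment. Fdft1, squalene synthase, which commits farnesyl diphosphate to sterol, read 1012 and 868 in OGFRL1 livers, against 1699 and 1928 in EGFP livers. Sqle, squalene epoxidase, a second control point of the pathway, read 403 and 469 in OGFRL1 livers, against 769 and 951 in EGFP livers. Both stood near one another, with log2 fold changes of -0.95 (SE 0.15, adjusted p = 0.0554) for Fdft1 and -0.97 (SE 0.16, adjusted p = 0.0671) for Sqle in limma. Lss, which closes the rings to lanosterol, read 237 and 247 in OGFRL1 livers, against 385 and 451 in EGFP livers, a log2 fold change of -0.78.

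Cyp51, Tm7sf2, Msmo1, Nsdhl and Hsd17b7 strip methyl groups from lanosterol and reduce its products. Cyp51, the lanosterol demethylase, read 319.8 and 313 in OGFRL1 livers, against 540.5 and 859.8 in EGFP livers. Its log2 fold change was -1.10 (SE 0.23, adjusted p = 0.0979, limma). Tm7sf2, a sterol reductase of the same stretch, read 593 and 653 in OGFRL1 livers, against 819 and 1183 in EGFP livers, a log2 fold change of -0.66. Msmo1, the methylsterol monooxygenase, read 741 and 775 in OGFRL1 livers, against 1359 and 3419.8 in EGFP livers. It had the largest log2 fold change of the list, -1.50, and the largest SE, 0.39, since its EGFP arrays differed 2.52-fold, and its adjusted p was 0.150 (limma). Without EGFP array 1 its log2 fold change was -2.17, and without EGFP array 2 it was -0.84. Nsdhl, which removes the carbon that Msmo1 oxidises, read 542 and 434 in OGFRL1 livers, against 870.2 and 1053 in EGFP livers, a log2 fold change of -0.98 (adjusted p = 0.0687, limma). Hsd17b7, the ketoreductase of that step, differed less, with 319.5 and 360.2 in OGFRL1 livers, against 429.6 and 538 in EGFP livers and a log2 fold change of -0.50.

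The last steps move and reduce double bonds of the sterol. Ebp, the sterol isomerase, read 2229 and 2140.3 in OGFRL1 livers, against 2964 and 2827 in EGFP livers. That is 75.5% of the EGFP mean and a log2 fold change of -0.41 (SE 0.13), close to the shift of the Cre controls. Sc5d, the sterol desaturase that follows, fell: it read 1325 and 1170.3 in OGFRL1 livers, against 2787 and 2565 in EGFP livers. Means were 1248 ± 109.5 in OGFRL1 livers and 2676 ± 157 in EGFP livers (SD, n = 2 arrays each), and limma gave a log2 fold change of -1.10 (SE 0.14, adjusted p = 0.0433). Dhcr7, the reductase that makes cholesterol from its immediate precursor, read 793 and 584 in OGFRL1 livers, against 1096 and 1416 in EGFP livers, a log2 fold change of -0.87 (SE 0.20, adjusted p = 0.120).

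**Figure D2:**
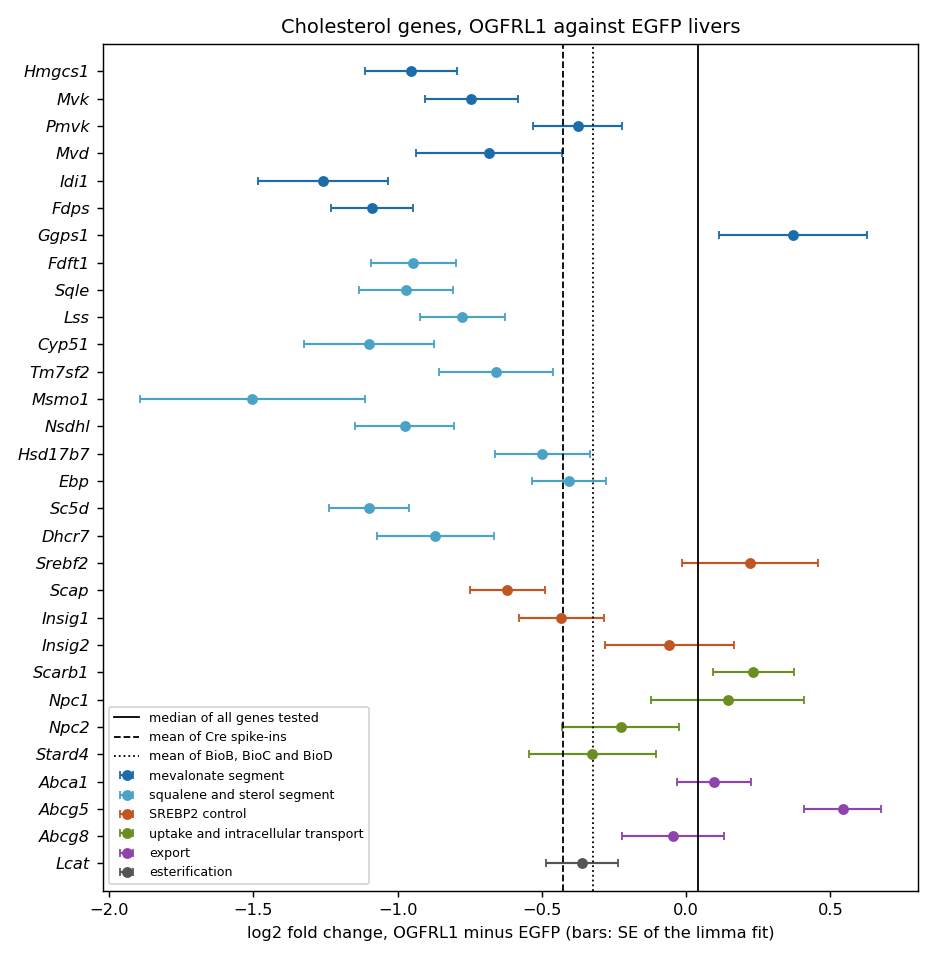
Log2 fold change, OGFRL1 minus EGFP, of the 30 cholesterol genes in pathway order, with bars of 1 SE of the limma fit and vertical lines at the median of all genes tested (solid), the mean of the Cre controls (dashed) and the mean of the BioB, BioC and BioD controls (dotted). Synthesis genes other than Ggps1 run over -1.50 to -0.38, and most of the remaining genes lie around the median of all genes.

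The 12 tested genes outside synthesis had a median log2 fold change of -0.05, and 7 of them were below 0. In 3 of them (Scap, Insig1 and Lcat) both OGFRL1 arrays read lower than both EGFP arrays, and in 3 (Scarb1, Abca1 and Abcg5) both read higher. Over all genes tested, 20.5% separated in the lower direction and 27% in the higher one. None of the 12 was called in limma; at an unadjusted p under 0.05, 3 were lower and 1 was higher.

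Of the SREBP2 control genes, Srebf2 itself read 87.3 and 119 in OGFRL1 livers, against 101 and 74.6 in EGFP livers. Its groups overlapped, and its log2 fold change of 0.22 had a 95% interval of -0.34 to 0.79. That interval, which measures only array-to-array spread, lay above the log2 fold changes of Fdps and Sc5d. Leaving out 1 array moved the log2 fold change of Srebf2 over 0.0046 to 0.44. Its dimmer probe set, 1452174_at, gave -0.06 (SE 0.27). Scap, the escort of SREBP2, read 489 and 463 in OGFRL1 livers, against 720.4 and 746 in EGFP livers. These groups were clearly apart, with a log2 fold change of -0.62 (SE 0.13, adjusted p = 0.1001, limma). Insig1, the retention protein that is itself a target of SREBP2, read 1543 and 1309.9 in OGFRL1 livers, against 1816 and 2033 in EGFP livers, a log2 fold change of -0.43. That equals the shift of the Cre controls, and after scaling to them it was -0.0079, though relative to the median of all genes it was -0.46 with that scaling and -0.48 without it. Insig2, its relative, read 1732 and 1526 in OGFRL1 livers, against 2120.2 and 1352 in EGFP livers. The EGFP arrays of Insig2 enclosed the OGFRL1 arrays, and the log2 fold change was -0.06 (adjusted p = 0.937, limma).

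Uptake and movement within the cell were measured through 4 genes, with a median log2 fold change of -0.04. Scarb1, the receptor for high-density lipoprotein, read 957 and 890.2 in OGFRL1 livers, against 731 and 844 in EGFP livers, a log2 fold change of 0.23 (SE 0.14). Its groups did not overlap, though they differed by little. Npc1 and Npc2 carry cholesterol out of lysosomes. Npc1 read 225 and 203 in OGFRL1 livers, against 145 and 256 in EGFP livers. Npc2 read 1426 and 1791 in OGFRL1 livers, against 2201 and 1592 in EGFP livers. Both overlapped between groups, and their EGFP arrays pointed opposite ways: Npc1 was higher on array 2 and Npc2 on array 1. Stard4, a cytosolic sterol carrier, read 464 and 409 in OGFRL1 livers, against 440.3 and 679.9 in EGFP livers, and its groups overlapped too, with a log2 fold change of -0.33 (SE 0.22). Without EGFP array 1 this was -0.64, and without EGFP array 2 it was -0.014.

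Export was measured through 3 transporters. Abca1, which loads cholesterol onto apolipoprotein A-I, read 1712 and 1797 in OGFRL1 livers, against 1684 and 1596 in EGFP livers. Its log2 fold change of 0.10 had a 95% interval of -0.21 to 0.40. Abcg5 and Abcg8 form a heterodimer that secretes sterol into bile, and their genes lie side by side on mouse chromosome 17, where an Abcg5 promoter window (chr17:84682962-84683261, minus strand) and an Abcg8 one (chr17:84682871-84683170, plus strand) overlap on opposite strands of GRCm38.p6. The 2 genes did not read alike. Abcg5 read 536 and 540.5 in OGFRL1 livers, against 352 and 386 in EGFP livers, so it stood at 146% of its EGFP mean. Abcg8 read 116 and 111 in OGFRL1 livers, against 106 and 129.5 in EGFP livers, with the EGFP arrays enclosing the OGFRL1 arrays. The log2 fold change was 0.54 for Abcg5 (95% interval 0.22 to 0.86, adjusted p = 0.137 in limma) and -0.05 for Abcg8 (95% interval -0.47 to 0.38); the difference between them was not tested. After scaling to the Cre controls, which called 9.09% of all genes, Abcg5 was called at a log2 fold change of 0.97. That scaling moved the median of all genes to 0.45, and relative to that median Abcg5 stood at 0.52, against 0.50 without the scaling.

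Lcat, which esterifies cholesterol in plasma lipoproteins, read 2238 and 2223 in OGFRL1 livers, against 2874 and 2859 in EGFP livers. Its arrays were nearly equal within each group, and the log2 fold change of -0.36 (SE 0.13, adjusted p = 0.247, limma) was smaller than the shift of the Cre controls.

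Several genes were read by more than 1 probe set, each a separate set of short probes. Over the 36 tested probe sets of synthesis genes, 33 had a negative log2 fold change and 32 separated in the lower direction, and without the 4 of Ggps1 it was 31 of 32. Of the 23 tested probe sets of the other genes 4 separated in the lower direction, 3 in the higher one, and 16 overlapped. Shares of all tested probe sets that separated are not given here. Over all genes tested they were 20.5% in the lower direction and 27% in the higher one. Probe sets of 1 gene were read on the same 4 arrays, so these counts add no samples to the counts of genes. In a limma fit over 20237 probe sets, 0.336% were called, and among these were 4 cholesterol probe sets: 1433444_at and 1433446_at of Hmgcs1, 1423418_at of Fdps and 1451457_at of Sc5d. The adjusted p of the Hmgcs1 probe sets was 0.0458 for 1433444_at and 0.0407 for 1433446_at, whereas 1433445_x_at, the brightest, which stood for the gene, had 0.0710. The 4 tested probe sets of Hmgcs1, from bright to dim, gave log2 fold changes of -0.95, -1.06, -1.05 and -1.38. In Affymetrix naming the ending x marks probes that can bind other transcripts too, and the brightest probe sets of Fdft1, Hsd17b7 and Scarb1 bear it as well.

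Of the 16 genes with several tested probe sets, 11 had the same sign in all. The other 5 were Abca1, Ggps1, Sc5d, Scarb1 and Srebf2. For Sc5d the bright probe sets 1451457_at and 1434520_at gave -1.10 and -0.90, while the dim 1424709_at, with a mean signal of 20.7, gave 0.01. The 4 probe sets of Ggps1, all dim, gave 0.37, -0.35, 0.53 and -0.06 and have no common direction. Insig2 gave -0.06, -0.49 and -0.02. Scarb1 gave 0.23, 0.02 and -0.06, so the separation of its groups was seen with its brightest probe set only.

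**Figure D3:**
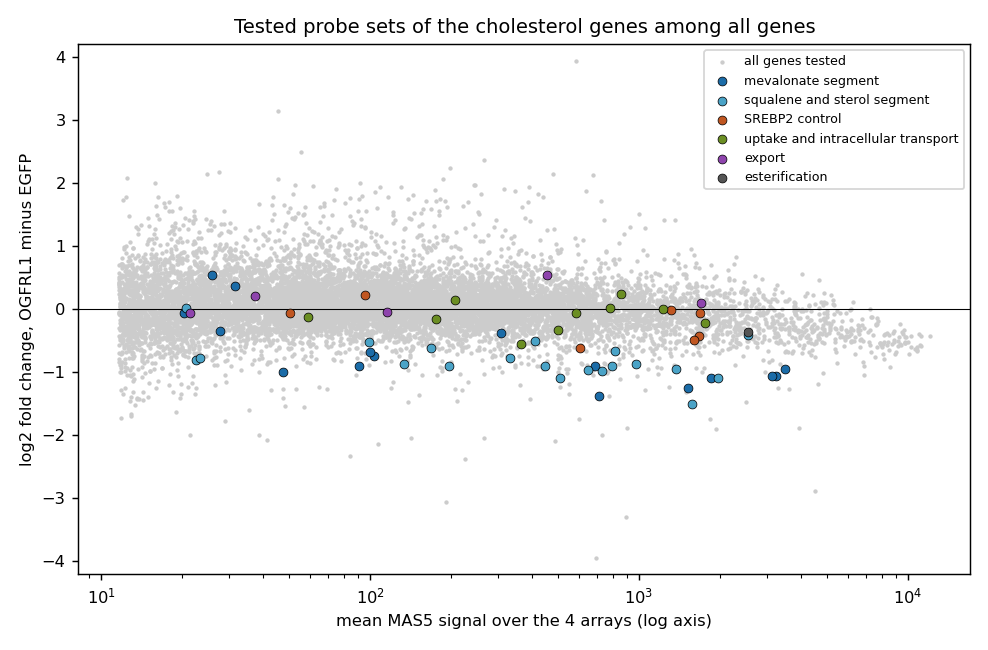
Log2 fold change, OGFRL1 minus EGFP, against mean MAS5 signal (log axis) for all genes tested (grey) and for each of the 59 tested probe sets of the cholesterol genes (coloured by role). Most synthesis probe sets with bright signals lie below the middle of the grey cloud at the same brightness. Ebp is nearer to it, at -0.41 against a median of -0.24 over all genes of 2500 to 5000. Probe sets near a signal of 20 to 40 scatter on both sides of 0.

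Related gene lists, chosen by role, mostly had medians near that of all genes. The enzymes that use farnesyl and geranylgeranyl diphosphate (9 tested) had a median log2 fold change of 0.06 and 0 calls in limma, with 0 at an unadjusted p under 0.05; the largest absolute t was that of Pdss2, of ubiquinone synthesis, at -0.22 (SE 0.16). The proteases and degradation factors of the SREBP pathway (7 tested) had a median of -0.01 and likewise 0 calls and 0 at an unadjusted p under 0.05, with Rnf145, a sterol-regulated ubiquitin ligase, at 0.23 and Erlin1 at -0.19. The sterol-sensing LXR receptors and their targets (6 tested) had a median of 0.15 and again 0 by either rule, among them Srebf1 at 0.24, Nr1h3 at -0.25 and Lpcat3 at -0.28. Other sterol carriers (11 tested) had a median of -0.15. None was called, and 2 were lower at an unadjusted p under 0.05 in limma, where 6.28% of all genes were. These were Scp2, a peroxisomal sterol carrier, at -0.56 (SE 0.18) and the oxysterol-binding Osbp at -0.35. Scp2 read above 5000 on every array, and all genes with a mean signal that high had a median of -0.43. Of the other lipoprotein receptors Vldlr read 0.66 (SE 0.46), Lrp1 0.10 and its chaperone Lrpap1 0.05.

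Fatty acid synthesis, which SREBP1 is known to drive in liver, was the other pathway list with lower signals throughout. All 12 tested genes had both OGFRL1 arrays below both EGFP arrays, with a median log2 fold change of -0.62. At an unadjusted p under 0.05, 9 of them were lower, where 6.28% of all genes were, and 0 were called in limma. Separation in the lower direction was seen in 20.5% of all genes tested. That share was 18.2% at mean signals of 100 to 250, 20.1% at 250 to 500, 30.4% at 500 to 1000 and 36.6% at 1000 to 2500. It was 57.2% at 2500 to 5000 and 85.8% above 5000. Of this list only Elovl5, Thrsp and Scd1 had a mean signal above 2500. Scd1, which read above 5000 on every array, stood at -0.52, near the median of -0.43 for genes that bright. Thrsp, with a mean signal above 5000 too, was further below that median. The part of brightness in the result of this list was not tested. Acacb, an acetyl-CoA carboxylase, stood at -1.16 (SE 0.18) and Thrsp, a lipogenic regulator, at -0.85 (SE 0.13), both with an adjusted p of 0.0554. Me1, the malic enzyme that supplies NADPH, stood at -1.01 and the elongase Elovl5 at -0.68.

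Markers of liver cell types differed between the groups as well. All 8 hepatocyte markers were lower in OGFRL1 livers, with a median log2 fold change of -0.56 and none called. Of these, 7 had a mean signal above 5000, where the median over all genes was -0.43 and 85.8% separated in the lower direction. Their summed signal was 53134.5 and 58425 in OGFRL1 livers, against 99592 and 68988 in EGFP livers. Alb, albumin, read 7041 and 7930 in OGFRL1 livers, against 16107 and 9313 in EGFP livers. In whole tissue, fewer cells of a type and less RNA per cell cannot be told apart. The 4 cycling markers had a median log2 fold change of 1.64, all with OGFRL1 arrays above EGFP arrays, against 27% of all genes tested. Of the 4, 1 was called (Birc5), where 0.511% of all genes were called in either direction. Mki67 read 355 and 447 in OGFRL1 livers, against 158 and 75.7 in EGFP livers. Macrophage markers had a median log2 fold change of -0.27 and summed signals of 3686 and 5876 in OGFRL1 livers, against 6653 and 3249 in EGFP livers, which overlap. Of 7 stellate or myofibroblast markers, 5 had both OGFRL1 arrays above both EGFP arrays, against 27% of all genes tested. Their median log2 fold change was 0.29 and none was called. At an unadjusted p under 0.05 in limma, 3 were higher, where 9.01% of all genes were higher. These 3 were Col1a1, a fibrillar collagen, at 2.0 (adjusted p = 0.0503), Acta2, smooth muscle actin, at 1.15 (adjusted p = 0.0684) and Pdgfrb, a growth factor receptor, at 0.99 (adjusted p = 0.0963). Medians were -0.24 for endothelial, 0.07 for cholangiocyte and -0.13 for neutrophil markers, the erythroid marker Alas2 stood at -1.45, and no marker of B or NK cells passed the filter. The part of these markers in the cholesterol results was not tested.

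The pair of EGFP arrays ordered these lists differently. Of the 18 synthesis genes, 14 read higher on EGFP array 2 than on EGFP array 1, whereas 7 of the 8 hepatocyte markers read higher on EGFP array 1, where Alb was 1.73 times as bright. Taking for each gene its log2 level minus its mean over the arrays, the synthesis genes had medians of -0.37 and -0.41 on the OGFRL1 arrays and of 0.32 and 0.58 on the EGFP arrays. The hepatocyte markers had -0.34 and -0.20 on the OGFRL1 arrays and 0.57 and -0.01 on the EGFP arrays. The medians of fatty acid synthesis ran like those of cholesterol synthesis, with -0.32 and -0.24 on the OGFRL1 arrays and 0.19 and 0.37 on the EGFP arrays. Its genes were split, though: Acacb and Thrsp read higher on EGFP array 1, and Me1 and Elovl5 on EGFP array 2. The summed signal of that list was higher on EGFP array 1, at 35928 against 33217. For the cholesterol genes outside synthesis the pooled median stayed near 0 on every array, at -0.03 on both OGFRL1 arrays and at 0.05 and 0.08 on the EGFP arrays. That median pools genes with opposite shifts, such as Scap with a log2 fold change of -0.62 and Abcg5 with 0.54. The SREBP2 control genes alone had -0.10 and -0.23 on the OGFRL1 arrays and 0.21 and 0.0015 on the EGFP arrays.

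**Figure D4:**
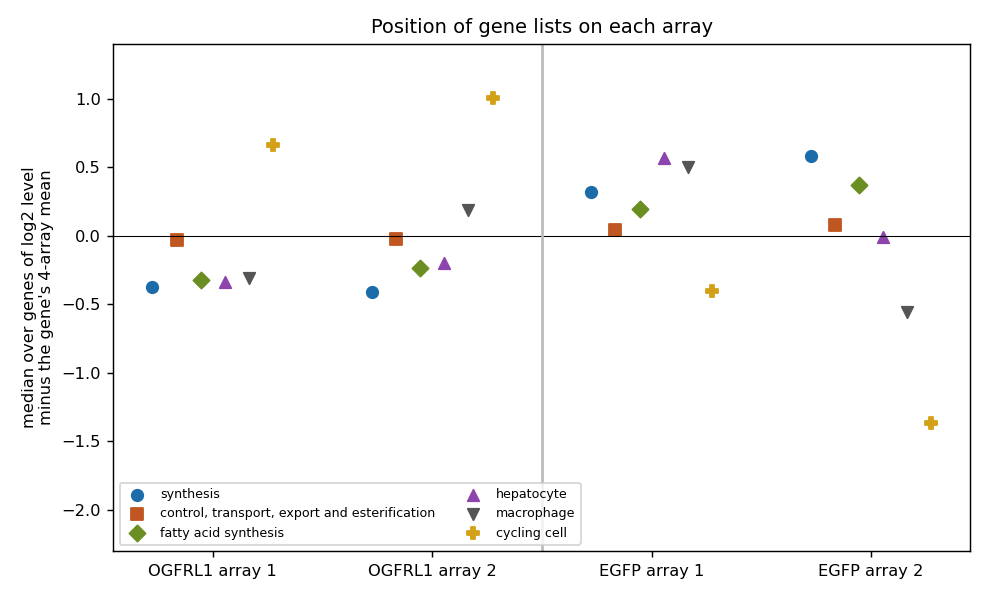
Median over the genes of a list of the log2 level minus each gene's mean over the 4 arrays, for 6 gene lists, with OGFRL1 arrays left of EGFP arrays. Cholesterol and fatty acid synthesis are below 0 on both OGFRL1 arrays and highest on EGFP array 2, hepatocyte markers are highest on EGFP array 1, and cycling markers are high on the OGFRL1 arrays.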

How the data were processed

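Liver RNA was measured on 4 Affymetrix arrays (100 ng each, per the labels). The authors deposited linear signal intensities made with MAS5, per the submitters' processing notes; the MAS5 version and detection calls are not given in the sources used here. No further normalization was applied. Genes were named through the platform annotation: of 45101 probe sets, 34945 had 1 symbol, 932 several and 9160 none, and 64 were controls. Signals were analysed as log2 of the intensity plus 3.51, the 25th percentile of all values. A gene was its brightest probe set, kept at a mean signal of at least 11.6, the median over probe sets, which left 11942 genes. Groups were compared with limma 3.58.1 in R 4.3.3 (lmFit, eBayes with an intensity trend; 2 residual and 4.48 prior degrees of freedom), tested first on simulated data, with Benjamini-Hochberg adjustment over all genes. With 2 arrays a group, the number of arrays limits precision.

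Members, lists and tests were chosen with earlier results of these data known. All members are named; of each related pathway list up to 4 genes are named, first those called, then those with the largest absolute t. Of the cell type markers Alb and Mki67 were named by rule; Birc5, Alas2, Col1a1, Acta2 and Pdgfrb were named after their values were seen. Alternatives covered scaling, pseudocount, filter, choice of probe set, variance model, replicate block and leaving out each array. Promoter windows came from RefSeq, build GRCm38.p6. Replicate numbers 1 and 2 recur in both groups but the labels do not tie them to a shared animal or batch.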

Additional observations from a re-analysis of the deposited data

How the results depend on the processing

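With 2 arrays a group, few calls are firm. In limma, the 2 called genes (21 at an unadjusted p under 0.05) became 0 after quantile normalization, without a filter, with a stricter filter, with the mean over probe sets and without an intensity trend (17 to 21 at an unadjusted p under 0.05), and 1 after median scaling (Sc5d) or Cre scaling (Abcg5). Shares of all genes at that unadjusted level are not given for these alternatives, so the 17 to 21 have no background either. With the replicate number as a block 1 gene was called (Idi1). Counts over all genes are not given for median scaling or for the block, so these calls have no background. The main fit had no block because the labels do not tie the numbers to a shared animal or batch. Deviations of the arrays sharing number 1 correlated at -0.28, which with 2 arrays a group cannot settle whether they are pairs. Leaving out 1 array gave 0 to 14 called genes. Over all genes tested, the 61 calls became 4 after quantile normalization, 1086 under Cre scaling, 21 with the stricter filter, 13 with the mean over probe sets, 94 with 4 times the pseudocount, 0 without a filter or a trend, and 0 to 856 leaving out 1 array. In the main probe set fit 4 probe sets of these genes were called, and 0.336% of all 20237. The 4 became 0 after quantile normalization, without a filter, without a trend and with the replicate block, and 2 under Cre scaling. Their number also moved when 1 array was left out. Shares over all probe sets in these settings are not given here, so these counts cannot be set against a background.

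The synthesis median was -0.48 under Cre scaling, which moved the median of all genes to 0.45, and -0.75 with the mean over probe sets; relative to all genes it was -0.93 and -0.77. The median of the other 12 genes was 0.37 under Cre scaling, -0.0033 under median scaling and -0.083 with the mean over probe sets, and ran over -0.091 to -0.0027 leaving out 1 array. Of 419 values of single genes under an alternative, 14 changed sign. Under Cre scaling these were Abcg8 and Insig2 (0.37 each), Npc2 (0.20), Stard4 (0.10), Lcat (0.065), Pmvk (0.045) and Ebp (0.020). Abcg8 was 0.0023 under median scaling and Insig2 0.044 after quantile normalization. Leaving out 1 array, Abcg8 ran over -0.19 to 0.10, Insig2 over -0.38 to 0.27, Npc1 over -0.26 to 0.54 and Npc2 over -0.46 to 0.0062. Of 238 values of the 17 lower synthesis genes, Pmvk and Ebp under Cre scaling were the 2 that changed sign. The cause of these changes was not tested.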
